A study of Homo sapiens with 12 samples.

Results

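The 10 genes described here form the core of the machinery that takes a cell from G1 into S phase: the D cyclins CCND1, CCND2 and CCND3, the E cyclins CCNE1 and CCNE2, the kinases CDK4 and CDK6, the inhibitors CDKN2A and CDKN1B, and the retinoblastoma gene RB1. They were chosen by symbol, and all 10 were found among the 98711 genes listed in every table, of which 27249 carry an Ensembl identifier. RNA was sequenced from Huh7 and HepG2, 2 human liver cancer cell lines, both as sorafenib-resistant and as parental cells. This gives 4 groups, each of 3 samples. Sorafenib is a multikinase inhibitor used against hepatocellular carcinoma. The resistant cells had survived repeated 24-hour exposures of rising concentration over 8 months, starting at 10 μmol, and the parental cells, labelled sensitive, had not. All cells carry the genotype label WT, and both parental lines had been authenticated. Whether the drug was present at harvest is not stated, and resistance was raised once per line as far as the labels say. Nothing states that the 3 samples of a group were separate cultures, so the p-values measure only the spread between these samples.

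In the textbook scheme, mitogens raise the D cyclins, which activate CDK4 and CDK6. These kinases phosphorylate the retinoblastoma protein and so release the E2F transcription factors, which switch on CCNE1, CCNE2 and the genes of DNA replication. Cyclin E then activates CDK2 and completes the phosphorylation. The p16 protein made from CDKN2A blocks CDK4 and CDK6, and p27, made from CDKN1B, binds the cyclin complexes of CDK2. In liver cancer this axis is often altered, through loss of p16 or of RB1 or through gain of CCND1 or CCNE1.

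Among the 9 genes tested, CCNE1 alone passed the test as higher in resistant cells of both lines. Of all genes tested, 32.7% passed as higher in Huh7 and 11.6% in HepG2, and the share in both was not counted. The mean of CCNE1 was about 2.28-fold higher in Huh7 and 2.04-fold higher in HepG2. The HepG2 call of CCNE1 was lost without HepG2 resistant replicate 3 (limma, adjusted p = 0.0579). CDKN2A was 2.42-fold higher in Huh7 and 1.91-fold higher in HepG2, without overlap in either line. Its HepG2 difference did not pass (limma, adjusted p = 0.0619) but did under some alternatives given further on. In resistant Huh7 cells, CDK6, CCNE2 and RB1 fell while CDK4 and CDKN2A rose, and CDK6 fell furthest, to a level 3.74-fold lower. CCNE2 was tested in Huh7 only through its parental samples, and CDKN2A in HepG2 only through its resistant ones. Once each library was corrected for its trend with GC content, as described further on, the falls of CCNE2 (-0.05, adjusted p = 0.647) and RB1 (-0.16, adjusted p = 0.0724) no longer passed, while the other 3 changes and that of CCNE1 did. In resistant HepG2 cells, CDKN1B fell to a level 1.96-fold lower. CDK6, CCNE2, RB1, CDKN1B and CDKN2A changed differently between the lines by the test of the difference itself. With the GC trend taken off, the differences of CCNE2 and RB1 were much smaller but still passed. That of CDKN2A was lost there and under other alternatives. The levels in all 12 samples are plotted for each gene.

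**Figure D1:**
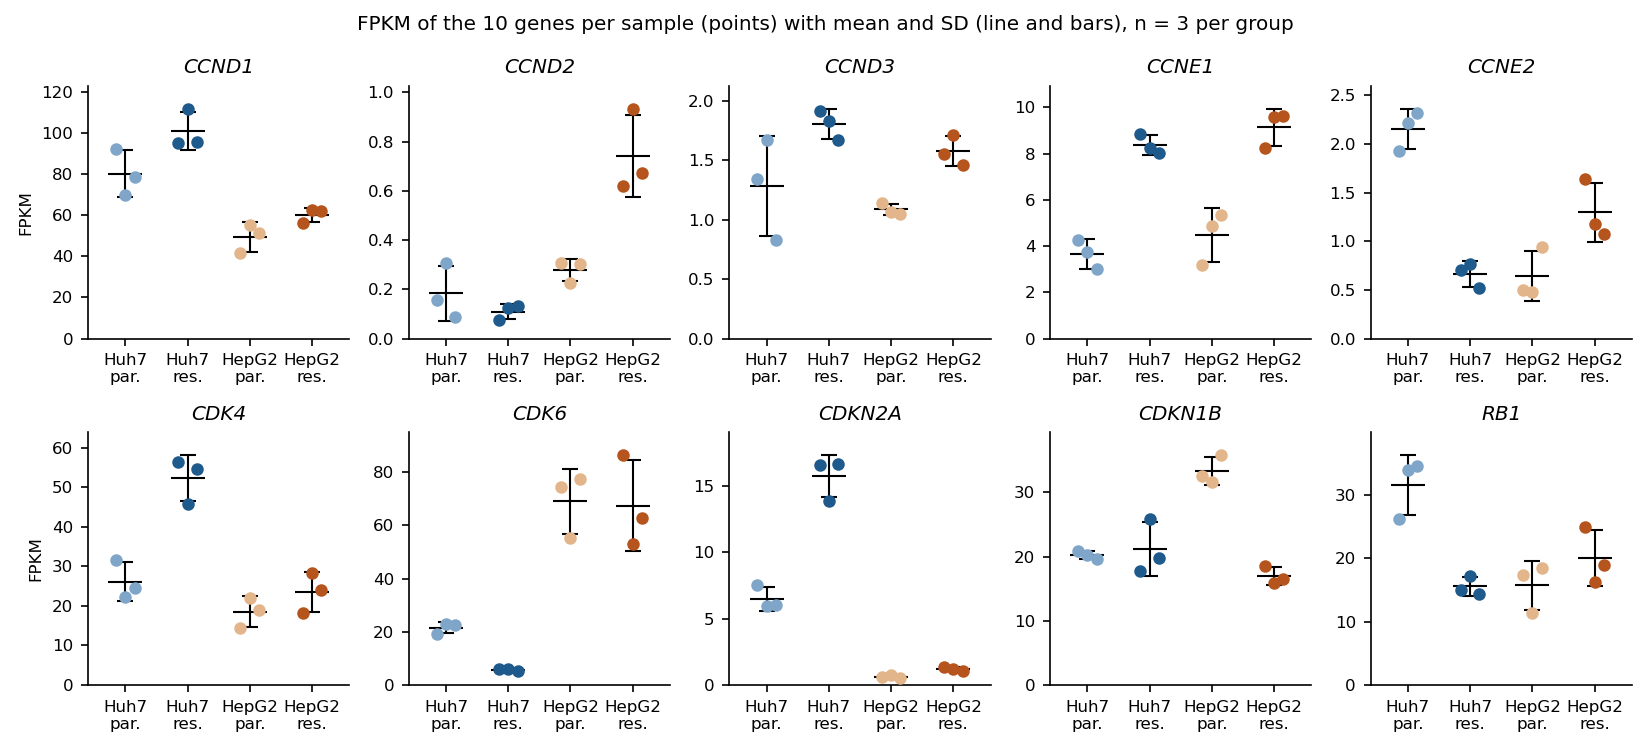
FPKM of each of the 10 genes, a level per length of transcript, in parental (par.) and resistant (res.) cells of both lines, with 1 point per sample, the group mean as a horizontal line and the SD as bars (n = 3 per group). CCNE1 lies higher in both resistant groups than in their parental groups, whereas CDK6 and RB1 are lower in resistant Huh7 cells alone and CDKN1B is lower in resistant HepG2 cells alone.

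Promoter sequence is shown for the gene that rose in both lines and for the gene with the deepest fall. The results on GC content given further on use the gene's transcripts and not these stretches. Both sequences come from RefSeq (GRCh38.p14), read 5′ to 3′ on the strand of the gene, and cover the part of the 250 bases before an annotated start that lies outside exons. CCNE1 is read from chr19:29811741-29811897 on the plus strand and CDK6 from chr7:92836595-92836823 on the minus strand. Capitals mark GC boxes, the 6 letters GGGCGG or their reverse complement CCGCCC, which the transcription factor SP1 is known to bind.
CCNE1: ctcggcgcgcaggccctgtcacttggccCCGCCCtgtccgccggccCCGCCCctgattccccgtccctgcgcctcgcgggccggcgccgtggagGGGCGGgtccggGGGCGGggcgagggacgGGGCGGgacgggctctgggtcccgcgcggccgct
CDK6: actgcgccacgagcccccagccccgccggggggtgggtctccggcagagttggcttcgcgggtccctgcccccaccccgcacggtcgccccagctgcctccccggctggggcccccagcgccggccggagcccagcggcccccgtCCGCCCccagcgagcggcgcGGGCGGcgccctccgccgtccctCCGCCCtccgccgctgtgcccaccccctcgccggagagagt
The 157 bases of CCNE1 hold 5 GC boxes and are 83.4% G or C. The 229 bases of CDK6 hold 3 and are 82.1% G or C. Of 35116 windows of 250 bases before annotated starts, with several for some genes, 42.6% hold at least 1 GC box, and the motif is therefore common. Windows were held for 7 of the 10 genes, and those of CCNE1, CDK6 and CDKN2A lay within 100 bases of the gene's 5′ end. The others lay farther from it, at 1669 bases for CCND3, 2310 for CDKN1B, 3703 for CDK4 and 172724 for RB1. Their windows therefore do not cover the sequence before that end. The 8-letter E2F motifs TTTCCCGC, TTTGGCGC, TTTCGCGC and TTTGCCGC, searched on both strands, were found in none of the 7 windows and in 2.79% of all windows, which says only that these letters are not in the stretches searched.

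In GRCh38 (GENCODE 29), the D cyclin genes lie on chromosome 11 (CCND1, 69641087 to 69654474, plus strand), chromosome 12 (CCND2, 4273772 to 4305350, plus) and chromosome 6 (CCND3, 41934933 to 42050357, minus). The E cyclin genes lie on chromosome 19 (CCNE1, 29811898 to 29824308, plus) and chromosome 8 (CCNE2, 94879770 to 94896678, minus), and the kinase genes on chromosome 12 (CDK4, 57747727 to 57756013, minus) and chromosome 7 (CDK6, 92604921 to 92836594, minus). CDKN2A lies on chromosome 9 (21967753 to 21995301, minus), CDKN1B on chromosome 12 (12715058 to 12722371, plus) and RB1 on chromosome 13 (48303726 to 48599436, plus). Each value is taken to be for the whole gene, summed over its exons, though how the reads were counted is not stated.

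The reads behind a sample, calculated back from the values of single-exon genes, numbered 12290135 to 19285959. They were fewer in parental than in resistant cells, with 16158312 to 17944473 against 18972396 to 19285959 in Huh7 and 12290135 to 15728849 against 16935459 to 18281778 in HepG2. The values used here are FPKM, which are scaled to depth, and the part of depth in the results was not tested. Samples of the same group correlated at 0.964 to 0.986 (Pearson, log2(FPKM + 1)). All 10 hepatocyte markers examined had a mean of at least 1 FPKM in every group, with a summed level of 5094 to 10230 FPKM. The summed level was at most 1.76 FPKM for 3 blood cell markers, 3.66 FPKM for 3 endothelial markers and 2.59 FPKM for 5 stromal markers. CD68 was at 0 in parental Huh7 and LUM at 0 in resistant HepG2 cells. The bile duct markers summed to 12.3 to 15.2 FPKM in parental and 82.6 to 105.3 FPKM in resistant Huh7 cells, with 2 of the 3 genes at 1 FPKM or more, against 50.2 to 57.3 FPKM in all HepG2 samples. Their part in the results was not tested.

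Resistant and parental cells of each line were compared by a two-sided limma test of values transformed to log2(FPKM + 1), over all genes that reached 1 FPKM in at least 3 of the 6 samples. A gene is said to have risen or fallen where its Benjamini-Hochberg adjusted p was under 0.05. The threshold of the paper's methods, which adds a log2 fold change beyond 1, is named where it was met. Fold values are ratios of mean FPKM, and log2 differences are on the log2(FPKM + 1) scale, which understates the change of low genes. Of the 9 G1 genes tested in Huh7, 3 rose and 3 fell, against 32.7% and 37.4% of the 12554 genes tested in that line (70.1% in all). Of these, 2 rose and 1 fell past the fold threshold too, against 8.59% and 14% (22.6% in all). Of the 9 tested in HepG2, 1 rose and 1 fell, against 11.6% and 8.43% of 11762 genes (20% in all). Past the fold threshold limma had 0 higher and 0 lower, against 3.29% and 2.98% (6.27% in all). These shares are near the background, so the counts are not a result about the G1 genes, and it is the identity and direction of each gene that is described. The 9 tested in Huh7 include CCNE2 only through its parental samples. The 9 tested in HepG2 include CCNE2 and CDKN2A only through their resistant samples. At the fold threshold limma-voom put 2 of the 9 higher in HepG2 (CCNE1 and CCNE2). Values of resistant and parental samples did not overlap for 8 of the 9 tested genes in Huh7 and 6 of the 9 in HepG2, against 74.5% and 40.4% of all genes tested. Median-ratio scaling of the samples changed the balance of all genes in HepG2, from 1366 higher and 991 lower to 989 higher and 1283 lower, and moved their median difference between the lines from -0.16 to -0.01, but turned the sign of no G1 gene. In bulk RNA, fewer cells with a transcript and less of it per cell cannot be told apart.

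**Figure D2:**
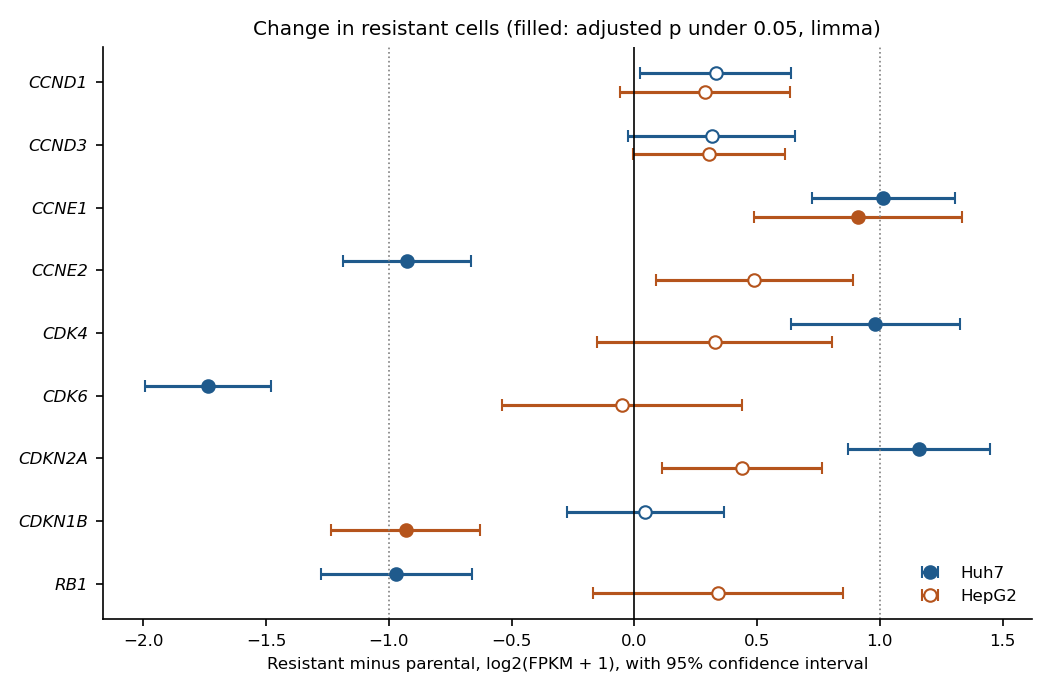
Difference of resistant minus parental cells on the log2(FPKM + 1) scale for the 9 genes tested, with the 95% confidence interval from limma, Huh7 in blue and HepG2 in orange. Filled points have an adjusted p under 0.05 and dotted lines mark a difference of 1 in either direction. CCNE1 is the one gene filled in both lines, and CDK6 in Huh7 has the largest difference, at -1.74.

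The D cyclins carry the mitogen signal, and among them CCND1 made up nearly the whole family in every group. Its share of the summed FPKM of the 3 D cyclins was 98.2% ± 0.820 (SD, n = 3) in parental and 98.1% ± 0.164 in resistant Huh7 cells, and 97.3% ± 0.567 and 96.3% ± 0.365 in HepG2 cells. In Huh7, CCND1 stood at 92.3, 70.0 and 78.7 FPKM in the parental samples and at 95.4, 112 and 95.8 FPKM in the resistant samples. In HepG2 it stood at 41.5, 55.2 and 51.5 FPKM in parental and at 56.2, 62.5 and 61.9 FPKM in resistant samples. The resistant samples lay above the parental ones in both lines without overlap, by a narrow margin, but neither difference passed the main test. The log2 difference was 0.33 (SE 0.13, 95% confidence interval 0.03 to 0.64, adjusted p = 0.0526) in Huh7 and 0.29 (SE 0.15, -0.06 to 0.63, adjusted p = 0.206) in HepG2. The Huh7 value passed the threshold with median-ratio scaling of the samples (0.41, adjusted p = 0.0156) with limma-voom on reads calculated back (0.33, adjusted p = 0.0226) and without Huh7 parental replicate 1 (0.44, adjusted p = 0.0182). With the GC trend of each library taken off it turned to -0.17 (adjusted p = 0.259).

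CCND3, the D cyclin best known from lymphoid cells, was near 1 FPKM throughout, with 78 to 211 reads per sample in Huh7 and 76 to 182 in HepG2. The parental Huh7 samples held 1.34, 1.67 and 0.832 FPKM and the resistant ones 1.92, 1.83 and 1.67 FPKM. Parental HepG2 samples held 1.14, 1.07 and 1.05 FPKM and resistant ones 1.56, 1.72 and 1.46 FPKM. Again the groups did not overlap, by a narrow margin in Huh7, and neither difference passed the test: 0.31 (-0.03 to 0.66, adjusted p = 0.0886) in Huh7 and 0.30 (0.00 to 0.61, adjusted p = 0.142) in HepG2. CCND3 passed in Huh7 with limma-voom (0.54, adjusted p = 0.0172), with all 12 samples in one fit (0.31, adjusted p = 0.047) and without Huh7 parental replicate 2 (0.44, adjusted p = 0.0365), and with the GC trend taken off the value was -0.24 (adjusted p = 0.182).

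CCND2, the third D cyclin, was the lowest of the 10 genes and did not reach 1 FPKM in any sample, so it was not tested in the main comparison. In Huh7 it stood at 0.156, 0.307 and 0.0865 FPKM in parental and 0.0737, 0.123 and 0.132 FPKM in resistant samples, which is 10 to 37 reads, and these values overlapped. In HepG2 it stood at 0.309, 0.227 and 0.302 FPKM in parental samples, from 20 to 34 reads, and at 0.619, 0.932 and 0.674 FPKM in resistant samples, from 75 to 122 reads. The HepG2 groups did not overlap, and the mean was 2.66-fold higher in resistant cells. Without the filter on low values the log2 difference was 0.44 (SE 0.10, adjusted p = 0.0503) in HepG2 and -0.09 (SE 0.07, adjusted p = 0.403) in Huh7.

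CDK4 and CDK6 are the catalytic partners of the D cyclins, and in resistant Huh7 cells they moved in opposite directions. CDK4 stood at 31.7, 22.3 and 24.5 FPKM in the parental and at 56.4, 45.7 and 54.7 FPKM in the resistant Huh7 samples. CDK6 stood at 19.1, 22.9 and 22.6 FPKM in the parental and at 5.89, 6.09 and 5.26 FPKM in the resistant Huh7 samples. For neither gene did the groups overlap, and the spread within each group was small beside the distance between them. CDK4 rose 2.00-fold, by 0.98 on the log2 scale (SE 0.15, adjusted p = 0.000537), and CDK6 fell by 1.74 (SE 0.11, adjusted p = 1.45e-05), past the fold threshold. Both calls held in each of the 6 fits that left out 1 sample, at 0.88 to 1.12 for CDK4 and -1.82 to -1.68 for CDK6. With the GC trend taken off they were smaller and still passed, at 0.48 (adjusted p = 0.00352) and -1.29 (adjusted p = 3.18e-05).

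In HepG2 neither kinase passed the test. CDK4 stood at 14.4, 22.1 and 19.1 FPKM in parental and at 18.3, 28.4 and 23.9 FPKM in resistant samples, a difference of 0.33 (-0.15 to 0.80, adjusted p = 0.291). CDK6 stood at 74.5, 55.2 and 77.4 FPKM in parental and at 86.3, 53.01 and 62.7 FPKM in resistant samples, a difference of -0.05 (-0.54 to 0.44, adjusted p = 0.889). The ranges of both groups overlapped for both genes. The change of CDK6 differed between the lines by -1.69 (SE 0.25, adjusted p = 0.000241), and that of CDK4 by 0.65 (SE 0.27, adjusted p = 0.0611), which did not pass. For CDK4 the difference passed with median-ratio scaling (0.85, adjusted p = 0.0187) and limma-voom (0.66, adjusted p = 0.0427), and without Huh7 parental replicate 1 (0.80, adjusted p = 0.0309), HepG2 resistant replicate 2 (0.80, adjusted p = 0.0295) or HepG2 parental replicate 1 (0.81, adjusted p = 0.0234). It was 0.29 (adjusted p = 0.186) with the GC trend taken off. TSPAN31 and MARCH9 overlap CDK4 on the opposite strand, at 3.86 to 6.30 and 1.38 to 5.38 FPKM.

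The balance of the 2 kinases is a description of the same values. CDK6 made up 37.6%, 50.6% and 48.0% of the summed CDK4 and CDK6 FPKM in the parental Huh7 samples, and 9.45%, 11.8% and 8.78% in the resistant ones. In HepG2 it made up 83.8%, 71.4% and 80.2% in parental and 82.5%, 65.1% and 72.4% in resistant samples. CDK6 was thus the minor kinase transcript in resistant Huh7 cells and the major one in both HepG2 groups. The summed level of both genes was 47.7 ± 2.86 FPKM in parental and 58.02 ± 5.54 FPKM in resistant Huh7 cells, and 87.6 ± 9.68 and 90.9 ± 12.1 FPKM in HepG2 cells (SD, n = 3). The composition of the kinase pair and of the E cyclin pair is plotted for each sample.

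**Figure D3:**
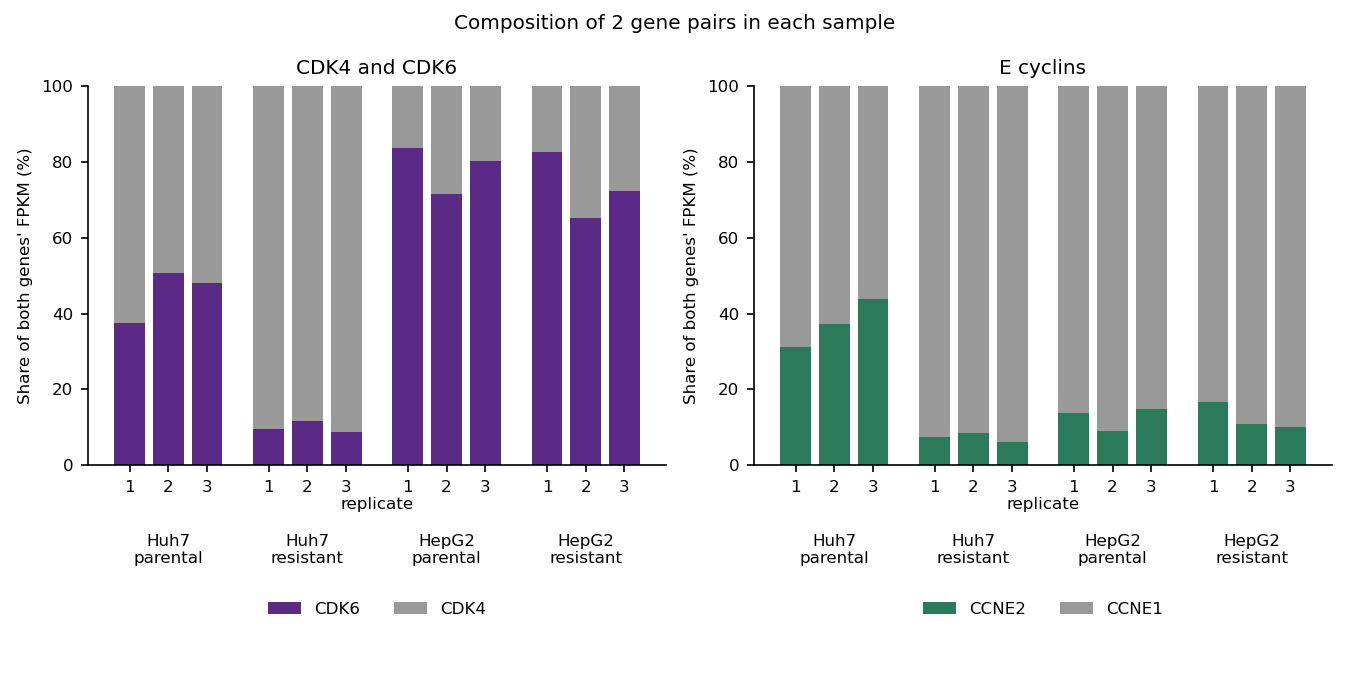
Share of CDK6 in the summed FPKM of CDK4 and CDK6 (left, purple) and of CCNE2 in the summed FPKM of CCNE1 and CCNE2 (right, green), in percent, for each of the 12 samples. In resistant Huh7 cells both shares lie under 12%, below all 3 parental Huh7 samples, whereas the HepG2 groups overlap.

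CCNE1 and CCNE2 encode the partners of CDK2 late in G1, and CCNE1 is described first. CCNE1 stood at 4.26, 3.75 and 2.99 FPKM in parental and at 8.85, 8.24 and 8.00 FPKM in resistant Huh7 samples. In HepG2 it stood at 3.17, 4.88 and 5.36 FPKM in parental and at 8.22, 9.57 and 9.62 FPKM in resistant samples. Every resistant sample lay above every parental one, in both lines. CCNE1 rose by 1.01 (SE 0.13, adjusted p = 0.000203) in Huh7, past the fold threshold, and by 0.91 (SE 0.19, adjusted p = 0.0125) in HepG2. The 2 changes differed by 0.10 (-0.39 to 0.60, adjusted p = 0.717). In Huh7 the call held in all fits that left out 1 sample (0.90 to 1.10) and with the GC trend taken off (0.77, adjusted p = 0.00025). In HepG2 it was lost without HepG2 resistant replicate 3 (0.88, adjusted p = 0.0579) and held in the other 5 such fits.

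CCNE2 stood at 1.93, 2.21 and 2.32 FPKM in parental and at 0.707, 0.767 and 0.514 FPKM in resistant Huh7 samples, from 152 to 165 and 43 to 65 reads. In HepG2 the order was the opposite, with 0.502, 0.481 and 0.940 FPKM in parental and 1.64, 1.18 and 1.07 FPKM in resistant samples, from 26 to 65 and 81 to 122 reads. The groups overlapped in neither line. CCNE2 fell by 0.92 (SE 0.11, adjusted p = 0.000185) in Huh7, and in HepG2 the difference was 0.49 (SE 0.18, 0.09 to 0.89, adjusted p = 0.0829). It was tested in Huh7 only through its parental samples and in HepG2 only through its resistant samples, since the other group lay under 1 FPKM, so its place among the genes tested is no sign of a difference. For the same reason only 3 of the 6 fits that left out 1 sample tested it in each line, and its Huh7 fall passed in those 3 (-0.97 to -0.86). The 2 changes differed by -1.41 (SE 0.19, adjusted p = 0.000126). In HepG2, CCNE2 passed with limma-voom (1.02, adjusted p = 0.0317) and with all 12 samples in one fit (0.49, adjusted p = 0.0187). In Huh7 the fall was lost with the GC trend taken off (-0.05, adjusted p = 0.647). CCNE2 overlaps INTS8 and NDUFAF6 on the opposite strand, at 3.40 to 9.24 and 1.97 to 3.79 FPKM, and whether the counting used strand is not stated.

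As a share of the E cyclin FPKM, CCNE2 made up 37.3% ± 6.31 in parental and 7.32% ± 1.24 in resistant Huh7 cells (SD, n = 3). In HepG2 the share was 12.5% ± 3.14 in parental and 12.5% ± 3.56 in resistant cells, at a summed level of 5.11 ± 1.33 and 10.4 ± 0.497 FPKM. The summed E cyclin level was 5.82 ± 0.457 FPKM in parental and 9.02 ± 0.519 FPKM in resistant Huh7 cells. The sums and shares are descriptions and were not tested, and the Huh7 share rests in part on the CCNE2 value, whose fall was lost with the GC trend taken off.

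CDKN2A encodes p16, the inhibitor of CDK4 and CDK6, and in another reading frame ARF, which acts on p53 through MDM2. The gene value sums both. It stood at 7.56, 5.95 and 6.02 FPKM in parental and at 16.6, 13.9 and 16.7 FPKM in resistant Huh7 samples. In HepG2 it stood at 0.598, 0.752 and 0.558 FPKM in parental, from 34 to 40 reads, and at 1.34, 1.24 and 1.07 FPKM in resistant samples, from 80 to 98 reads. Every resistant sample lay above every parental one in both lines. CDKN2A rose by 1.16 (SE 0.13, adjusted p = 0.000114) in Huh7, past the fold threshold, and still by 0.62 (adjusted p = 0.000146) with the GC trend taken off. In HepG2 it was tested only through its resistant samples, and the difference of 0.44 (SE 0.14, 0.11 to 0.76, adjusted p = 0.0619) did not pass. It passed there with limma-voom (0.94, adjusted p = 0.0211) and with all 12 samples in one fit (0.44, adjusted p = 0.0165). The ratios of mean FPKM were 2.42-fold in Huh7 and 1.91-fold in HepG2. On the log2(FPKM + 1) scale they differed by 0.72 (SE 0.17, adjusted p = 0.0034), and this was lost with a pseudocount of 0.1 (0.42, adjusted p = 0.129), with limma-voom (0.33, adjusted p = 0.359) and with the GC trend taken off (0.40, adjusted p = 0.0594).

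CDKN1B encodes p27, which restrains cyclin E and CDK2, and it changed in HepG2. Parental HepG2 samples held 32.5, 31.6 and 35.7 FPKM and resistant ones 18.6, 15.9 and 16.5 FPKM. Parental Huh7 samples held 20.9, 20.2 and 19.6 FPKM and resistant ones 17.8, 25.9 and 19.8 FPKM. The HepG2 groups lay far apart, while the resistant Huh7 samples spread around the parental ones. CDKN1B fell by 0.93 (SE 0.13, adjusted p = 0.00297) in HepG2, in all 6 fits that left out 1 sample (-0.99 to -0.88), with median-ratio scaling (-1.04, adjusted p = 0.00172) and with the GC trend taken off (-0.99, adjusted p = 0.00051). In Huh7 the difference was 0.04 (-0.28 to 0.37, adjusted p = 0.787). The 2 changes differed by 0.98 (SE 0.18, adjusted p = 0.000956).

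RB1 encodes the target of these kinases, the brake on E2F, and it fell in Huh7. It stood at 26.2, 33.8 and 34.6 FPKM in parental and at 15.03, 17.2 and 14.4 FPKM in resistant Huh7 samples, without overlap. In HepG2 it stood at 17.3, 11.3 and 18.5 FPKM in parental and at 24.9, 16.3 and 19.0 FPKM in resistant samples, which overlapped. RB1 fell by 0.97 (SE 0.13, adjusted p = 0.000327) in Huh7, 2.03-fold by the means, and the difference in HepG2 was 0.34 (-0.17 to 0.85, adjusted p = 0.301). The changes differed by -1.31 (SE 0.28, adjusted p = 0.00212). With the GC trend taken off, the Huh7 fall was -0.16 (adjusted p = 0.0724) and no longer passed, and the difference between the lines was -0.41 (adjusted p = 0.0288). LPAR6 lies within RB1 on the opposite strand, at 3.48 to 10.0 FPKM.

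GC content moved with the changes in Huh7. Over 12545 genes tested in that line, Spearman's rho between the GC content of a gene's transcripts and its log2 difference was 0.628, a description across genes of the same 6 libraries, against 0.026 over 11756 genes in HepG2. The median log2 difference in Huh7 was -0.90 for the 1686 genes under 40% GC and 0.52 for the 3142 genes at 55% or more, and in HepG2 it was 0.15 and 0.17. Among the G1 genes that fell in Huh7, CCNE2 has 38.5% GC, RB1 39.3% and CDK6 43.0%. Among those that rose, CCNE1 has 50.7%, CDK4 55.9% and CDKN2A 60.8%. Genes within 1 percentage point of GC content had a median of -0.90 for CCNE2 (898 genes) and -0.82 for RB1 (1126 genes), close to the values of these 2 genes. CDK6 lay below the lower quartile of such genes (-0.87), and CCNE1, CDK4 and CDKN2A lay above the upper quartile (0.65, 0.88 and 0.96). In HepG2, CDKN1B lay below the lower quartile (-0.20), and CCNE1 and CCNE2 above the upper quartile (0.34 and 0.39). What gave rise to the GC trend was not tested.

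**Figure D4:**
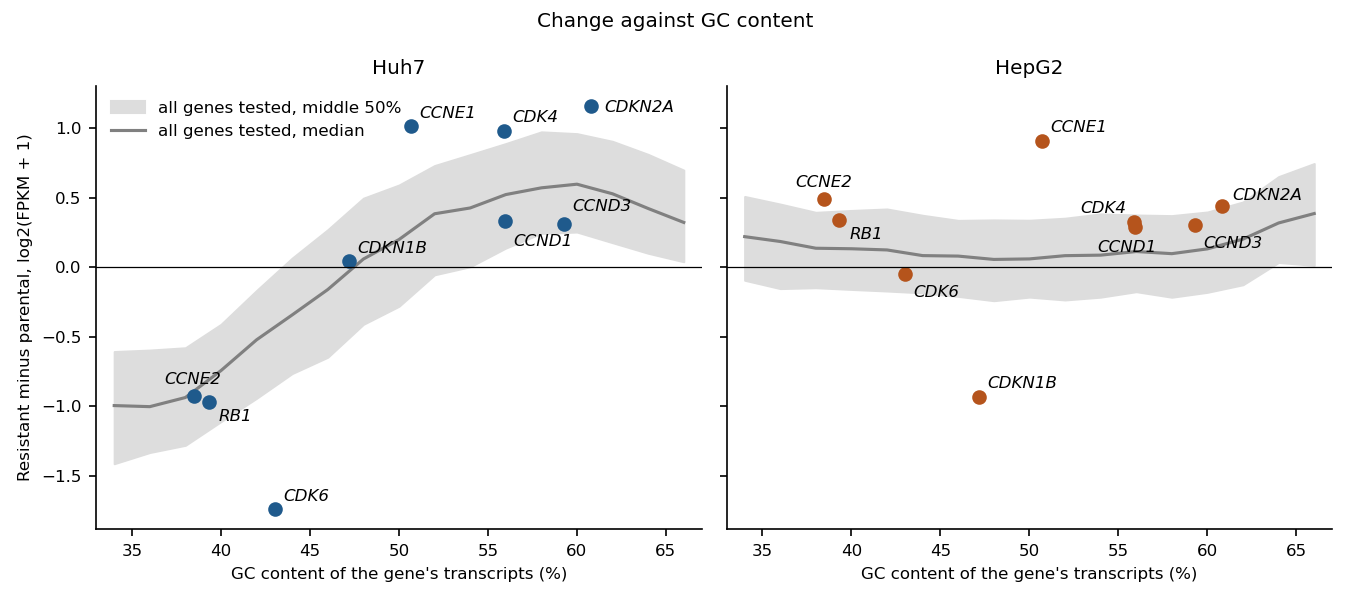
Difference of resistant minus parental cells, log2(FPKM + 1), against the GC content of the gene's transcripts in percent, with the G1 genes as points and all genes tested as a median line with the middle 50% shaded, Huh7 left and HepG2 right. In Huh7 the median of all genes climbs with GC content, with CCNE2 and RB1 close to it and CDK6 well below it. In HepG2 the median stays between 0 and 0.4, and CCNE1 and CDKN1B lie farthest from it.

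Changes of the 2 lines were set against each other in one fit of all 12 samples, over 13800 genes. The difference between the lines was above 0 for 2 and below 0 for 3 of the 9 G1 genes at an adjusted p under 0.05, against 23.1% and 33.2% of all genes (56.3% in all), and for 3 it was beyond 1 (CCNE2, CDK6 and RB1, lower in Huh7), against 18.2% lower (28.8% in all). For CCND1 the difference was 0.04 (-0.38 to 0.46), for CCND3 0.01 (-0.38 to 0.40) and for CCNE1 0.10, as above. Intervals of this width leave room for unlike changes in these 3 genes. For CCND2, without the filter, the difference was -0.53 (SE 0.11, adjusted p = 0.00522).

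Levels also differed between the lines. Between parental cells, 5 of the 9 G1 genes were higher in Huh7 and 2 lower, against 39.8% and 27.4% of all genes (67.2% in all), and CDKN2A and CDK6 were beyond 1, against 30.2%. The values of 7 of these 9 genes did not overlap between the parental lines, against 68.7% of all genes tested. CDKN2A was 10.2-fold higher in Huh7 than in HepG2 cells by the means, a log2 difference of 2.19 (SE 0.12, adjusted p = 1.77e-08). CDK6 was 3.21-fold higher in HepG2 cells, a log2 difference of Huh7 minus HepG2 of -1.63 (SE 0.18, adjusted p = 8.19e-06). RB1 (0.98, adjusted p = 0.000928), CCNE2 (0.95, adjusted p = 6.4e-05), CCND1 (0.69, adjusted p = 0.000786) and CDK4 (0.48, adjusted p = 0.0454) were higher in Huh7. CDK4 was lost with median-ratio scaling (0.31, adjusted p = 0.166), without the filter (0.48, adjusted p = 0.0757), and without Huh7 parental replicate 1 or 3 or HepG2 parental replicate 1 or 3 (0.32 to 0.52, adjusted p = 0.0674 to 0.177). CDKN1B was higher in HepG2 (-0.69, adjusted p = 0.000544). CCND3 (0.11, -0.17 to 0.39, adjusted p = 0.452) and CCNE1 (-0.22, -0.56 to 0.13, adjusted p = 0.249) did not pass, but CCNE1 did without HepG2 parental replicate 1 (-0.40, adjusted p = 0.0215).

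Between resistant cells, 3 of the 9 were higher in Huh7 and 2 lower, against 31.7% and 32.4% of all genes (64.1% in all), and 3 were beyond 1, against 26.6%. The values of 5 of these 9 genes did not overlap, against 70.2%. CDK6 was 11.7-fold higher in HepG2 (-3.31, SE 0.18, adjusted p = 1.91e-08) and CDKN2A 12.9-fold higher in Huh7 (2.91, SE 0.12, adjusted p = 1.59e-09). CDK4 (1.13, adjusted p = 0.000325) and CCND1 (0.73, adjusted p = 0.000567) were higher in Huh7. CCNE2 had changed sides, from higher in parental Huh7 to lower in resistant Huh7 than in resistant HepG2 cells (-0.46, adjusted p = 0.0101), though the latter was lost with the GC trend taken off (-0.15, adjusted p = 0.18). RB1 (-0.33, -0.76 to 0.10, adjusted p = 0.16) and CDKN1B (0.29, 0.01 to 0.57, adjusted p = 0.0689) did not pass. CDKN1B did without Huh7 resistant replicate 1 (0.40, adjusted p = 0.0228), with median-ratio scaling (0.32, adjusted p = 0.0329) and with the GC trend taken off (0.27, adjusted p = 0.0252). These comparisons share their samples with those within the lines.

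The order of the group means can be read gene by gene. For CDK6 it ran from HepG2 parental (69.0 ± 12.1 FPKM, SD, n = 3) and HepG2 resistant (67.3 ± 17.1), which did not differ beyond their spread, to Huh7 parental (21.5 ± 2.09) and Huh7 resistant (5.75 ± 0.432). For CDKN2A it ran from Huh7 resistant (15.7 ± 1.58) and Huh7 parental (6.51 ± 0.908) to HepG2 resistant (1.22 ± 0.133) and HepG2 parental (0.636 ± 0.102), with no overlap between neighbours. For CDK4, resistant Huh7 cells (52.3 ± 5.78) stood apart from parental Huh7 (26.2 ± 4.92), resistant HepG2 (23.5 ± 5.07) and parental HepG2 cells (18.5 ± 3.86), whose neighbouring means lay within their spread. For CDKN1B, parental HepG2 cells (33.3 ± 2.20) stood apart from resistant Huh7 (21.2 ± 4.21), parental Huh7 (20.2 ± 0.651) and resistant HepG2 cells (17.0 ± 1.41). For RB1 it was parental Huh7 cells (31.5 ± 4.66) that stood apart, above resistant HepG2 (20.1 ± 4.39), parental HepG2 (15.7 ± 3.87) and resistant Huh7 cells (15.5 ± 1.47). For CCNE1 the 2 resistant groups (9.13 ± 0.792 in HepG2, 8.36 ± 0.436 in Huh7) and the 2 parental groups (4.47 ± 1.15 and 3.66 ± 0.642) each lay together. Set side by side per length, CCND1 was the most abundant of the 10 transcripts in both Huh7 groups, and CDK6 had the highest mean in both HepG2 groups, within its spread of CCND1 in resistant cells.

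For the 5 genes whose group means spanned over 1 on the log2(FPKM + 1) scale, the 2 genes most like them were sought among 11525 protein-coding genes, by the smallest mean absolute difference of values centred on each gene's own mean over the 12 samples. CCND1 (span 1.02) was closest to CTDP1 and ARIH2, each at 0.08, CDK4 (span 1.46) to DGCR2 and SLC4A2, each at 0.07, and CCNE1 (span 1.13) to CLPB at 0.10 and MCAT at 0.11. CDK6 (span 3.36) was closest to F11, coagulation factor XI, at 0.19 and to CAVIN2 at 0.20. CAVIN2 went from 3.12 ± 0.543 FPKM in parental to 0.432 ± 0.0883 FPKM in resistant Huh7 cells and stood at 17.4 ± 1.14 and 12.4 ± 1.27 FPKM in parental and resistant HepG2 cells (SD, n = 3). CDKN2A (span 3.35) was closest to RAB1B at 0.13 and RASL12 at 0.15, and RASL12 stood at 4.38 ± 0.661 and 10.1 ± 1.71 FPKM in parental and resistant Huh7 cells and under 0.2 FPKM on average in both HepG2 groups.

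Other genes of the pathway were followed in 6 lists, 103 genes in all. E2F target genes, mostly the replication machinery, were higher in resistant HepG2 cells: 23 of 30 tested rose and 0 fell by limma, against 11.6% and 8.43% of all genes, with a median log2 difference of 0.89 against 0.12. At an unadjusted p under 0.05, 25 were higher and 0 lower, and limma-voom passed 24 higher and 0 lower. The count of risen genes was 15 without HepG2 resistant replicate 3 and 17 to 21 without any 1 of the other samples. The replicative helicase subunit MCM5 rose from 13.8 ± 2.17 to 36.8 ± 7.46 FPKM (log2 1.34, adjusted p = 0.00279), the flap endonuclease FEN1 from 4.42 ± 0.696 to 12.4 ± 0.984 FPKM (1.31, adjusted p = 0.00126), the origin protein ORC1 from 9.34 ± 0.585 to 24.1 ± 3.71 FPKM (1.27, adjusted p = 0.00158) and the DNA ligase LIG1 from 1.84 ± 0.126 to 5.61 ± 1.38 FPKM (1.20, adjusted p = 0.00408). In Huh7, 17 of 30 rose and 4 fell, against 32.7% and 37.4% of all genes, with a median of 0.39 against -0.04, and with the GC trend taken off 19 rose and 4 fell. MCM5 rose from 21.3 ± 3.36 to 55.9 ± 7.91 FPKM there (1.36, adjusted p = 0.000119), followed by MCM2 (1.17), MCM7 (1.12) and the transcription factor MYBL2 (1.02).

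The RB family and E2F factors were mixed. In Huh7, 6 of 17 rose and 4 fell, against the same background, with a median of -0.12, and 10 rose and 2 fell with the GC trend taken off. E2F2, an activating factor, rose from 3.89 ± 0.528 to 13.5 ± 1.77 FPKM (1.56, adjusted p = 4.07e-05), and E2F7, a repressing one, fell from 8.88 ± 0.367 to 3.63 ± 0.386 FPKM (-1.09, adjusted p = 7.53e-05). In HepG2, 5 of 17 rose and 2 fell, against 11.6% and 8.43% of all genes, with a median of 0.02 against 0.12, and 6 rose and 6 fell with the GC trend taken off. E2F8, a relative of E2F7 and also a repressing factor, rose there from 4.96 ± 1.24 to 11.5 ± 0.763 FPKM (1.09, adjusted p = 0.00476), and E2F7 rose from 4.30 ± 1.27 to 9.95 ± 1.17 FPKM (1.07, adjusted p = 0.0085). The change of E2F7 differed between the lines by -2.16 (adjusted p = 2.41e-05) and that of E2F2 by 1.85 (adjusted p = 4.83e-05). Without HepG2 resistant replicate 3 the HepG2 count was 2 risen and 0 fallen, without HepG2 parental replicate 1 it was 3 and 1, and the 2 fallen genes were lost as well without HepG2 resistant replicate 1 or 2 or HepG2 parental replicate 2.

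Of the other CDK inhibitors, 3 of 6 tested rose and 1 fell in HepG2, against 11.6% and 8.43% of all genes, with a median of 0.36 against 0.12. CDKN2C, which encodes the p16 relative p18, rose from 1.40 ± 0.438 to 4.69 ± 0.214 FPKM (1.26, adjusted p = 0.00239). In Huh7, 0 of 5 rose and 2 fell, against 32.7% and 37.4% of all genes, with a median of -0.03 against -0.04, and 1 rose without Huh7 parental replicate 1 or with median-ratio scaling. At an unadjusted p under 0.05, 1 was higher by limma, and limma-voom passed 0 higher. The fallen HepG2 gene, CDKN2B, named here after its values were seen, was tested only through its parental samples, and not once any HepG2 parental sample was left out.

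Among the other kinases and activators, 5 of 9 rose and 2 fell in Huh7, against 32.7% and 37.4% of all genes (70.1% in all), with a median of 0.29 against -0.04. Taking the GC trend off left 4 risen and 1 fallen. The phosphatase CDC25A, which activates CDK2, rose from 18.3 ± 2.30 to 43.1 ± 1.21 FPKM (1.20, adjusted p = 6.34e-05), and CCNH, the cyclin of the CDK-activating kinase, fell from 3.39 ± 0.933 to 0.971 ± 0.241 FPKM (-1.14, adjusted p = 0.000481). In HepG2, 1 of 9 rose and 0 fell, against 11.6% and 8.43% of all genes, with a median of 0.15 against 0.12, and the count of risen genes was 0 whichever sample was left out and with median-ratio scaling. At an unadjusted p under 0.05, 2 were higher and 0 lower by limma, and limma-voom passed 1 higher and 0 lower.

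The list of turnover of G1 cyclins and p27 holds the ubiquitin ligases and their helpers. In Huh7, 4 of 15 rose and 7 fell, against 32.7% and 37.4% of all genes (70.1% in all), with a median of -0.02 against -0.04, and 6 rose and 5 fell with the GC trend taken off. AMBRA1, the receptor that marks D cyclins for degradation, rose from 5.18 ± 0.346 to 12.9 ± 1.34 FPKM (1.17, adjusted p = 7.03e-05) and UBE2C by 1.11, while the kinase GSK3B fell by 1.03. In HepG2, 2 of 15 rose and 0 fell, against 11.6% and 8.43% of all genes, with a median of 0.12 as over all genes, and the count was 1 without any 1 resistant sample or without HepG2 parental replicate 1. At an unadjusted p under 0.05, 5 were higher and 1 lower by limma, and limma-voom passed 2 higher and 0 lower. SKP2, the F-box protein that marks p27 for degradation, changed differently between the lines by -1.30 (adjusted p = 0.000129), with 26.8 ± 1.33 and 51.7 ± 5.49 FPKM in parental and resistant HepG2 cells and 201.4 ± 15.8 and 155.5 ± 21.1 FPKM in Huh7 cells.

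Upstream inputs changed differently between the lines, with a median difference of change of 0.73 against -0.16 over all genes, 13 of 20 higher in Huh7 and 4 lower, against 23.1% and 33.2% of all genes. In HepG2, 2 of 18 rose and 7 fell, against 11.6% and 8.43% of all genes, with a median of -0.39 against 0.12, and 2 rose and 11 fell with the GC trend taken off. There the fallen genes included MYC, a driver of cell growth, from 284.3 ± 21.5 to 89.3 ± 8.74 FPKM (-1.66, adjusted p = 0.000424). FOXO3, which activates CDKN1B, fell from 19.2 ± 3.53 to 5.49 ± 0.113 FPKM (-1.62, adjusted p = 0.000709), JUN fell from 18.4 ± 0.393 to 5.86 ± 0.624 FPKM (-1.51, adjusted p = 0.000438) and ETS2 fell by 1.05. The count of risen genes was 0 without HepG2 resistant replicate 3 and 1 without any 1 of the others but HepG2 parental replicate 3. That of fallen genes was 7 without HepG2 parental replicate 3, 6 without HepG2 parental replicate 1 and 5 without any 1 of the others. In Huh7, 9 of 20 rose and 5 fell, against 32.7% and 37.4% of all genes (70.1% in all), with a median of 0.21 against -0.04. The genes past both thresholds included FOSL1, an AP-1 subunit, from 0.915 ± 0.141 to 7.31 ± 1.16 FPKM (2.11, adjusted p = 1.36e-05), ETS2 (1.39) and the Polycomb gene BMI1, a repressor of CDKN2A, which fell from 22.3 ± 3.02 to 8.03 ± 1.77 FPKM (-1.38, adjusted p = 0.000148). In HepG2, where CDKN2A also stood higher in resistant cells, BMI1 stood at 18.3 ± 5.25 FPKM in parental and 23.9 ± 5.57 FPKM in resistant cells. No link of BMI1 to CDKN2A or of FOXO3 to CDKN1B was tested. FOS, another AP-1 subunit, went from 0.430 ± 0.188 to 2.65 ± 0.199 FPKM in Huh7 (1.36, adjusted p = 6.31e-05). It was tested only through its resistant samples, and not at all once any 1 of them was left out, so its place among the genes tested is no sign of a difference. The change of MYC differed between the lines by 2.54 (adjusted p = 2.81e-06), that of FOSL1 by 2.55 and that of ETS2 by 2.44.

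**Figure D5:**
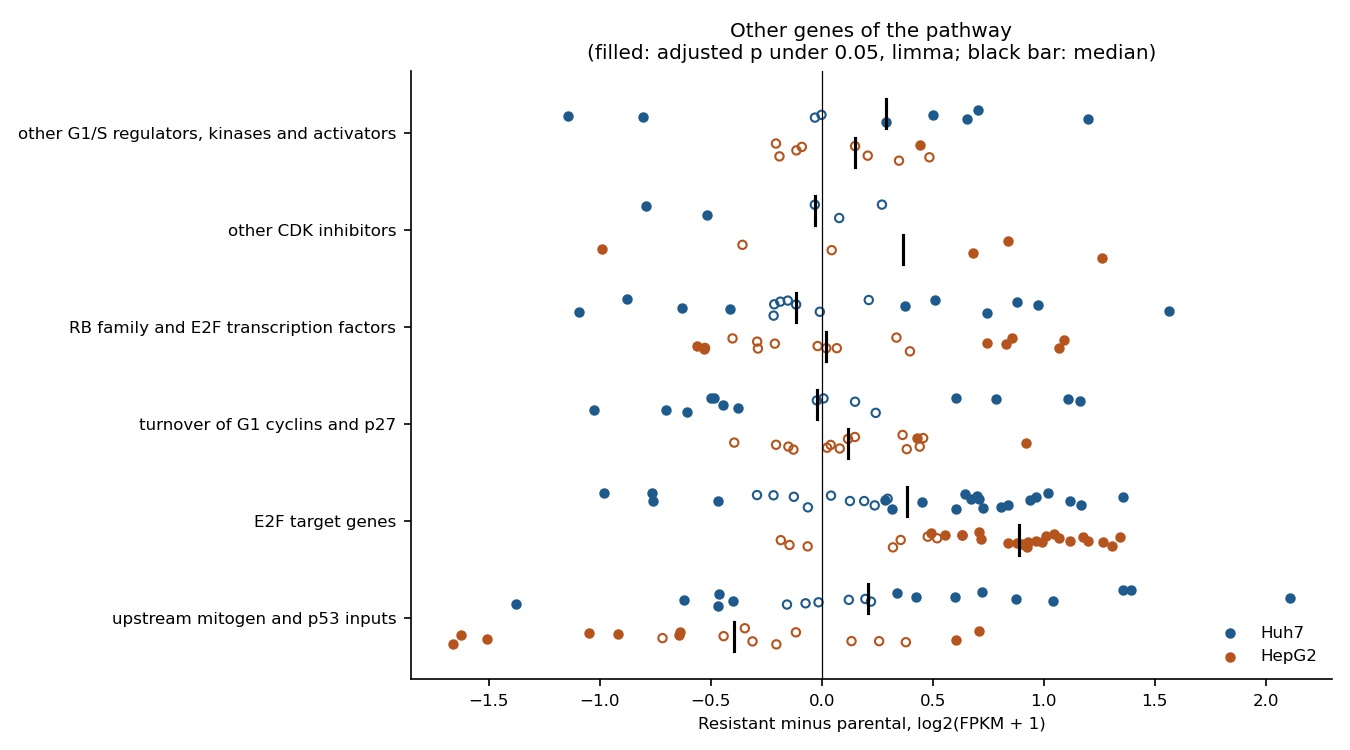
Difference of resistant minus parental cells, log2(FPKM + 1), for each tested gene of the 6 lists, Huh7 in blue above HepG2 in orange, filled where the adjusted p was under 0.05, with a black bar at the median of each list and line. The E2F target genes of HepG2 lie mostly to the right of 0 around a median of 0.89, and the upstream inputs of HepG2 lie mostly to the left around -0.39.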

How the data were processed

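RNA sequencing of 12 samples, 3 in each of 4 groups, was analysed from the tables deposited by the authors, which hold 1 value per gene and sample in FPKM (fragments per length of transcript and sequencing depth), as normalised by the authors. Per the labels, RNA was extracted with an RNeasy kit and libraries were made with the NEBNext Ultra kit. The submitters' processing notes name bcl2fastq and GRCh38. The aligner, the counting program and its use of strand are not given in the sources used here. The word FPKM is taken from the study's description, and the tables hold normalised values whose steps fit whole reads: 96.3% to 96.5% of the values that came to at most 2000 reads lay within 0.05 of a whole read. Exact depth is therefore an estimate. Among the G1 genes RB1 fitted least, and only its value in HepG2 resistant replicate 1 lay within 0.05 of a whole read. Its reads calculated back, used in limma-voom, are therefore less exact.

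Of 98711 genes listed, the 27249 with an Ensembl identifier were tested with limma 3.58.1 in R 4.3.3 (empirical Bayes with a trend) on log2(FPKM + 1), if they reached 1 FPKM in at least 3 samples. Each line was fitted apart (6 samples), and differences between lines in 1 fit of 12 samples, with Benjamini-Hochberg adjustment over all genes tested. The script was tested on simulated data. Tables and figures were made with Python 3.11.15, pandas 2.3.3, numpy 2.4.6 and matplotlib 3.10.9. All 10 G1 genes are named. From each list, up to 4 genes with the largest log2 difference among those past both thresholds are named, and for G1 genes with a span of group means over 1 the 2 genes with the nearest pattern. The members and lists were chosen with earlier results of these data known. Alternatives were a pseudocount of 0.1, no filter, scaling by median ratios, limma-voom (on reads calculated back from FPKM), the GC trend of each library taken off (lowess, span 0.3), a replicate block, all 12 samples in one fit, and each sample left out in turn.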

Additional observations from a re-analysis of the deposited data

Results flagged for a closer look

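For 5 of the 9 G1 genes tested the change with resistance differed between the lines in limma, against 56.3% of all 13800 genes. The count is therefore not a result about the G1 genes. The term is the interaction of the 12-sample fit (log2, change in Huh7 minus change in HepG2). The difference was -1.69 for CDK6, -1.41 for CCNE2, -1.31 for RB1, 0.72 for CDKN2A and 0.98 for CDKN1B. For all 5 it passed whichever of the 12 samples was left out. With the GC trend taken off it was -1.17 for CDK6, -0.44 for CCNE2, -0.41 for RB1, 0.40 for CDKN2A and 1.09 for CDKN1B, and CDKN2A no longer passed. CDKN2A was also lost with a pseudocount of 0.1 (0.42, adjusted p = 0.129) and with limma-voom (0.33, adjusted p = 0.359).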

How the results depend on the processing

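Genes past both thresholds in Huh7 numbered 1079 higher and 1759 lower, against 1630 and 2665 with limma-voom and 703 and 730 with the GC trend taken off. In HepG2, 387 were higher, against 612 with a pseudocount of 0.1 and 646 with limma-voom. For the difference between the lines, 2517 were lower, against 1272 with the GC trend taken off. Of the G1 genes in Huh7, 5 rose with limma-voom and 1 fell with the GC trend taken off, where the main counts were 3 and 3. In HepG2, 3 rose with limma-voom and 3 with all 12 samples in one fit, against 1. For the difference between the lines, 1 was higher with a pseudocount of 0.1 and 1 with the GC trend taken off, against 2, and between resistant lines 1 was lower with the GC trend taken off, against 2. The cause was not tested.

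With the GC trend taken off, values that had not passed turned sign: CCND1 -0.17 and CCND3 -0.24 in Huh7, CCND1 -0.32, CCND3 -0.37 and CCNE1 -0.032 for the difference between the lines, and CCND3 -0.058 between resistant lines. Leaving out 1 sample at a time gave 854 to 1321 genes higher and 1190 to 1942 lower in Huh7, 260 to 473 and 276 to 357 in HepG2, 1264 to 1638 and 2125 to 2708 for the difference between the lines, 2148 to 2709 and 1519 to 1739 between parental lines, and 1681 to 1930 and 1708 to 1933 between resistant lines. The G1 genes that passed numbered 3 to 4 higher and 2 to 3 lower in Huh7, 0 to 1 and 1 to 1 in HepG2, 2 to 3 and 3 to 3 for the difference, 4 to 5 and 2 to 3 between parental lines, and 3 to 4 and 2 to 2 between resistant lines. Uncalled values crossed 0 for CDKN1B in Huh7 (-0.10 to 0.16), CDK6 in HepG2 (-0.24 to 0.11), CCND1 (-0.050 to 0.16), CCND3 (-0.14 to 0.13) and CCNE1 (-0.0175 to 0.29) for the difference, and CCND3 between parental lines (-0.0095 to 0.26).

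To look for pairing, each gene's group mean was taken off, and the remainders of same-numbered resistant and parental samples were correlated across genes. These remainders correlated at 0.073, 0.053 and -0.198 in Huh7 and 0.221, 0.394 and -0.011 in HepG2. Not every sample correlated best with its own number, so the numbers were not taken to pair the samples. A replicate block gave 1081 and 1760 genes past both thresholds in Huh7 and 426 and 353 in HepG2. It raised the count at an adjusted p under 0.05 in HepG2 from 1366 higher and 991 lower to 2111 and 1307. Among the G1 genes it changed the call of CDK4 between parental lines (0.48, adjusted p = 0.0695) and no other. The list genes named for passing both thresholds kept their direction and an adjusted p under 0.05 under every alternative that tested them. Whether they stayed past the fold threshold was not checked. Reads per sample limit CCND2, CCNE2 and CDKN2A in HepG2, where counts were lowest.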
